A study of Mus musculus with 6 samples.

Results

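The Mas-related G protein-coupled receptor genes of the mouse were described in sorted hematopoietic stem and progenitor cells with and without Ash2l. A list of 10 genes was taken, Mrgpra1, Mrgpra2a, Mrgpra2b, Mrgpra3, Mrgpra4, Mrgpra6, Mrgpra9, Mrgprb1, Mrgprb2 and the pseudogene Mrgprx3-ps, out of 30738 genes with a probe set of their own. Each of the 10 genes was measured by 1 probe set that names no other gene, and 0 of the probe sets that name several genes include a Mas-related gene. The genes were chosen by their family and with their KO against control log2 fold changes on these arrays known, so that their values in that comparison are a description and are given without a test.

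LSK cells (lin-, Sca1+, cKit+) were sorted from bone marrow, and their RNA was measured on 6 MTA-1.0 arrays, 3 from KO and 3 from control animals. KO mice carried Ash2l alleles with a floxed exon 4 (fl/fl) and the MxCre transgene, in which the interferon-responsive Mx1 promoter drives Cre. Control mice carried the same fl/fl alleles and no Cre. All mice of both groups, between 10 and 25 weeks old, had received 3 intraperitoneal injections on alternating days, of poly(dIdC) in the sample labels and of pIC in the methods, and marrow was taken at day 10. The injected compound itself can induce interferon and was given to both groups, Mx1-driven Cre is active in many cell types beside LSK cells, and loss of Ash2l cannot be told apart from the presence of Cre. The labels call the arrays of a group biological replicates, and the paper speaks of 3 independent experiments. Neither source ties an array to a single animal, so the spread is that between arrays and may in part be technical. Ash2l, a subunit of the complexes that methylate histone H3 at lysine 4, had log2 signals of 9.65, 9.63 and 9.65 in the 3 KO arrays and of 10.76, 10.57 and 10.23 in the 3 control arrays. It was 1.84-fold lower without overlap of the groups (adjusted p = 0.198 from limma). This is the signal of 1 probe set for the gene, and the floxed exon alone was not analysed here. The fold therefore does not measure how complete the knockout was. The paper reports that RNA with the floxed exon was strongly reduced in KO cells, on the arrays and by PCR. It also reports that Ash2l protein was almost absent from sorted KO LSK cells.

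Values are log2 signals of arrays normalized together, and a difference of 1 is a 2-fold difference. The array medians lay between 6.02 and 6.09. Across probe sets the KO arrays correlated with each other at 0.992 to 0.994 and control replicates 1 and 2 at 0.989, whereas control replicate 3 had correlations of 0.984 and 0.980 with these controls and of 0.989 with KO replicate 2. The log2 fold changes of the listed genes are therefore also given without control replicate 3. In RNA from a sorted population, a change in the number of cells of a type and a change in RNA per cell cannot be told apart.

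Mas-related receptors are G protein-coupled receptors that take up peptides and other small, mostly basic, ligands and signal mainly through Gq and Gi proteins. The family is best known from sensory neurons of the dorsal root ganglia, where members mediate itch and pain. Others work in immune cells. Mrgprb2 is the receptor through which mast cells are activated by basic secretagogues without IgE, and Mrgpra2a and Mrgpra2b are receptors of neutrophils for defensins. In mice the Mrgpra and Mrgprb genes have multiplied into a cluster of close copies on chromosome 7, among which pseudogenes are frequent.

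To show how close the copies are, promoter windows of 250 bases before to 50 bases after the annotated start were taken from RefSeq (GRCm38.p6), where 7 of the 10 genes have one, Mrgpra1, Mrgpra2a, Mrgpra2b, Mrgpra4, Mrgpra9, Mrgprb1 and Mrgprb2. The windows of Mrgpra2a (chr7:47452115-47452414, minus strand) and Mrgpra2b (chr7:47489533-47489832, minus strand) were identical over all 300 bases. Mrgpra9 (chr7:47252830-47253129, minus strand) and Mrgpra1 (chr7:47354191-47354490, minus strand) have windows of the same kind. The 3 different windows of the genes that differed most between the groups are shown, with the longest run that they share in capitals.
Mrgpra9: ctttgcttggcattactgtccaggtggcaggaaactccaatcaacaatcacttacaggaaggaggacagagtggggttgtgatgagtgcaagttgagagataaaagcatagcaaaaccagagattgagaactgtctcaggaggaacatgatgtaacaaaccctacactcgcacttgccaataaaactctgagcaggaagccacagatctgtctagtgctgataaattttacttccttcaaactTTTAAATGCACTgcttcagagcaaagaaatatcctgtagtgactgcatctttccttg
Mrgpra1: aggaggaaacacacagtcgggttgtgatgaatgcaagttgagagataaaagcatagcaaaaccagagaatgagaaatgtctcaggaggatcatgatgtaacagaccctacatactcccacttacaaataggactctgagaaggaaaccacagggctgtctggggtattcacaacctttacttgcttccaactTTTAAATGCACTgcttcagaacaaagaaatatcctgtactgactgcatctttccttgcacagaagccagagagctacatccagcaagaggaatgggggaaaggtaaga
Mrgpra2a: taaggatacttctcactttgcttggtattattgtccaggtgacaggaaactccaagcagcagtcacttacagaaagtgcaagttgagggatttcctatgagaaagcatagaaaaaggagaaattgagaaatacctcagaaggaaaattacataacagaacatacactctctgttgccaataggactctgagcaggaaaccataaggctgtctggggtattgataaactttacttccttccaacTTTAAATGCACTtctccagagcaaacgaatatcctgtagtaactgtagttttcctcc
The capitals mark TTTAAATGCACT, a run of 12 bases that begins at position -7 from the annotated start in Mrgpra9, Mrgpra2a and Mrgpra2b and at -58 in Mrgpra1. It occurred in 5 of 32851 windows (0.0152%), of which 4 belong to these genes and the other to Zfp286os. In local alignments, the window of Mrgpra1 matched that of Mrgpra9 at 87.3% of 245 positions and that of Mrgpra2a at 81.7% of 213, and Mrgpra2a matched Mrgpra9 at 81.5% of 281. Mrgprb1 and Mrgprb2 matched each other at 73.8% of 164 positions, and no alignment of the Mrgpra4 window with another was longer than 34 bases. Signals of such copies may not be separate, since a probe designed for one can hybridize with the transcript of another. The probe sequences were not used here.

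These windows were searched on both strands for 7 motifs of factors that act in blood cells or at promoters. The GATA motif AGATAA was found in the windows of Mrgpra1 and Mrgpra9, at positions -208 and -153 from the start, which is 2 of 7, beside 11.2% of all windows. The C/EBP motif TTGCNNAA, the PU.1 motif GAGGAAGT, the interferon motifs ISRE, by its name, and TTCNNNGAA (GAS), TATAAA and the GFI1 motif AATCNNNGC were in 0 of 7 windows. They occurred in 10.8%, 3.2%, 3.44%, 8.3%, 13.6% and 10.3% of all windows, in that order. A match is a description of the letters, and no match says only that these letters are not in this window.

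Of the 10 genes, 7 were higher in KO LSK cells by the 2-fold rule, a difference above 2-fold together with an unadjusted p below 0.01 in limma, namely Mrgpra1, Mrgpra2a, Mrgpra2b, Mrgpra4, Mrgpra6, Mrgpra9 and Mrgprx3-ps. Of all 65956 probe sets, 391 (0.593%) met this rule in the same direction. None of the 10 was lower by it (0.393% of all probe sets). With Mrgpra3, 8 of the 10 genes had all KO arrays above all control arrays (6.15% of all probe sets did). None had an adjusted p under 0.05, which 0 of all probe sets (0%) had. At an unadjusted p under 0.05, 8 of the 10 genes were higher and 0 lower, beside 5.09% and 5.8% of all probe sets. Because this contrast chose the genes, nothing is read from these counts. The median log2 fold change of the 10 genes was 3.27, or 3.92 without control replicate 3, beside -0.03 for all probe sets.

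Mrgpra2a, a receptor of neutrophils for defensins, had the largest difference of the 10 genes. Its log2 signals were 16.03, 15.11 and 14.92 in the KO arrays and 7.31, 8.71 and 12.54 in control replicates 1, 2 and 3. The lowest KO array stood 2.38 above the highest control array, and that control was replicate 3, which was far above the other controls. The log2 fold change was 5.83 (SE 1.23, n = 3 per group), a 57-fold difference of means, and 7.34 without control replicate 3.
Mrgpra2b, the copy with the same promoter window and the same neutrophil role, had log2 signals of 13.59, 13.01 and 12.30 in KO and of 7.56, 7.81 and 10.42 in control. Its groups were separated by 1.88, with control replicate 3 again the nearest to the KO arrays. The log2 fold change was 4.37 (SE 0.76), or 20.7-fold, and 5.28 without control replicate 3. In both genes KO replicate 1 was the highest and KO replicate 3 the lowest array of the KO group.

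Mrgpra1, which is a receptor for the heme breakdown product bilirubin, had log2 signals of 10.80, 11.18 and 11.33 in KO and of 5.78, 5.55 and 9.04 in control. The KO arrays lay close together, whereas the controls spread with an SD of 1.95. Its log2 fold change was 4.31 (SE 0.88).
Mrgpra9, whose promoter window is the most like that of Mrgpra1, was at 12.12, 12.45 and 11.72 in KO and at 6.38, 5.99 and 9.95 in control. This is a log2 fold change of 4.66 (SE 0.98), or 25.2-fold, with a gap of 1.77 between the groups. Without control replicate 3, whose signal was the highest of the controls for both genes, the log2 fold changes were 5.44 for Mrgpra1 and 5.91 for Mrgpra9.

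Both pseudogenes of the list were also higher in KO cells on every array. Mrgpra6, which RefSeq lists as a transcribed pseudogene, had log2 signals of 9.99, 10.49 and 10.14 in KO and of 6.58, 6.68 and 8.41 in control, with a log2 fold change of 2.98 (SE 0.48), or 7.91-fold, and 3.58 without control replicate 3. Mrgprx3-ps was at 9.04, 9.31 and 7.89 in KO and at 4.72, 4.23 and 6.61 in control. Its groups lay 1.28 apart and its log2 fold change was 3.56 (SE 0.66), or 11.8-fold, and 4.27 without control replicate 3. The signals of Mrgprx3-ps and Mrgpra1 in control replicates 1 and 2 and that of Mrgpra9 in control replicate 2 were below the array medians. How far such dim signals follow the amount of RNA was not tested, so that the folds of these 3 genes are uncertain in size.

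Differences were smaller in the next genes of the row. Mrgpra4 had log2 signals of 8.86, 9.11 and 8.70 in KO and of 7.02, 7.26 and 7.76 in control, a log2 fold change of 1.54 (SE 0.21), or 2.91-fold, and 1.75 without control replicate 3. Mrgpra3, the chloroquine receptor of itch neurons, was at 8.70, 8.32 and 8.65 in KO and at 8.03, 7.75 and 7.94 in control. Its groups did not overlap, but the gap was 0.29 and the log2 fold change 0.65 (SE 0.15), or 1.57-fold, and 0.67 without control replicate 3. Control replicate 3 lay between the other controls in Mrgpra3, unlike in the 7 genes described before it.

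The Mrgprb genes of the list showed no such difference. Mrgprb2, the mast cell receptor, was at 4.76, 4.98 and 4.78 in KO and at 4.90, 4.73 and 5.05 in control, with a log2 fold change of -0.05 (SE 0.13). Mrgprb1 was at 3.96, 4.28 and 4.55 in KO and at 4.53, 4.13 and 4.14 in control, with a log2 fold change of 0.00 (SE 0.19). In both genes the groups overlapped and every array was below its array median, a range in which the transcript may not be present at all. Without control replicate 3 the log2 fold changes were 0.02 for Mrgprb2 and -0.07 for Mrgprb1. Leaving out single arrays moved Mrgprb1 between -0.15 and 0.15 and Mrgprb2 between -0.14 and 0.02.

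**Figure D1:**
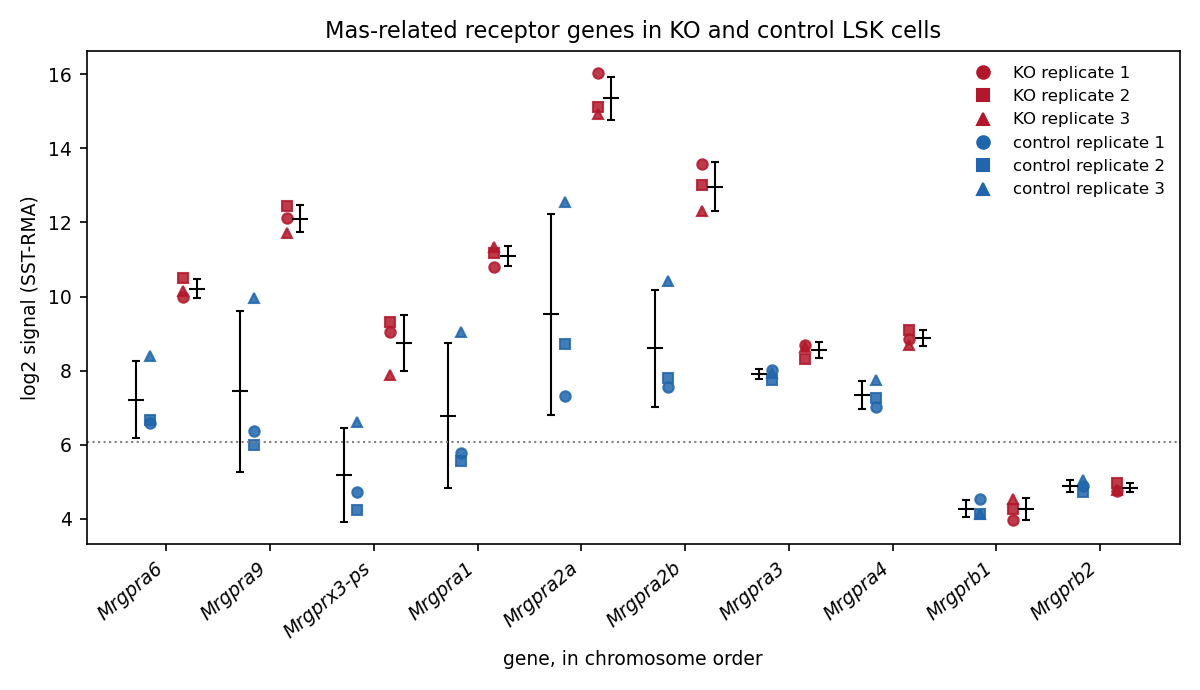
Log2 signal of each of the 10 listed genes on each of the 6 arrays, with KO and control arrays and the group means marked. In 8 genes the 3 KO arrays lie above the 3 controls, and in the 7 genes with a difference over 2-fold control replicate 3 is the highest control, at 12.54 in Mrgpra2a and 9.95 in Mrgpra9.

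Control replicate 3 took a middle place in most of these genes. It stood above the mean of control replicates 1 and 2 by 4.53 in Mrgpra2a, 3.76 in Mrgpra9, 3.37 in Mrgpra1, 2.74 in Mrgpra2b, 2.14 in Mrgprx3-ps, 1.78 in Mrgpra6 and 0.62 in Mrgpra4. As a part of the distance from these controls to the KO mean, this was between 35.4% in Mrgpra4 and 63.7% in Mrgpra9, and 7.5% in Mrgpra3. The mean of the values of all 10 genes, each set against its own mean over the 6 arrays, was 1.48, 1.51 and 1.19 in the KO arrays and -2.03, -2.03 and -0.12 in the controls. This mean was thus the same in control replicates 1 and 2, although single genes differed between them, Mrgpra2a by 7.31 against 8.71. In the 7 genes with a difference over 2-fold, replicate 3 was the control farthest from the other controls, which was not so in Mrgpra3, Mrgprb1 and Mrgprb2. Over the 6 arrays, the 28 pairs among the 8 genes without overlap had Pearson correlations between 0.810 and 0.993, which include the difference between the groups. The lowest of them involved Mrgpra3, and Mrgprb1 and Mrgprb2 correlated with each other at 0.090. The 6 points of each pair share arrays, and the correlations are a description.

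In the order of the RefSeq genes on chromosome 7, Mrgpra6, Mrgpra9, Mrgprx3-ps, Mrgpra1, Mrgpra2a, Mrgpra2b, Mrgpra3 and Mrgpra4 follow each other with only the small nuclear RNA gene Gm25326 between the measured ones. Then come Mrgprx1, Mrgprb5, Mrgprb4, Mrgprb13, Mrgprb8, Mrgprb1, Mrgprx2, Mrgprb2 and Mrgprb3. RefSeq has 27 Mas-related genes and pseudogenes in this cluster, of which 17 have a probe set of their own and 10 pseudogenes were not analysed here. The 6 measured genes from Mrgpra6 to Mrgpra2b had log2 fold changes between 2.98 and 5.83. From Mrgpra3 onward they were 1.54 or less.

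**Figure D2:**
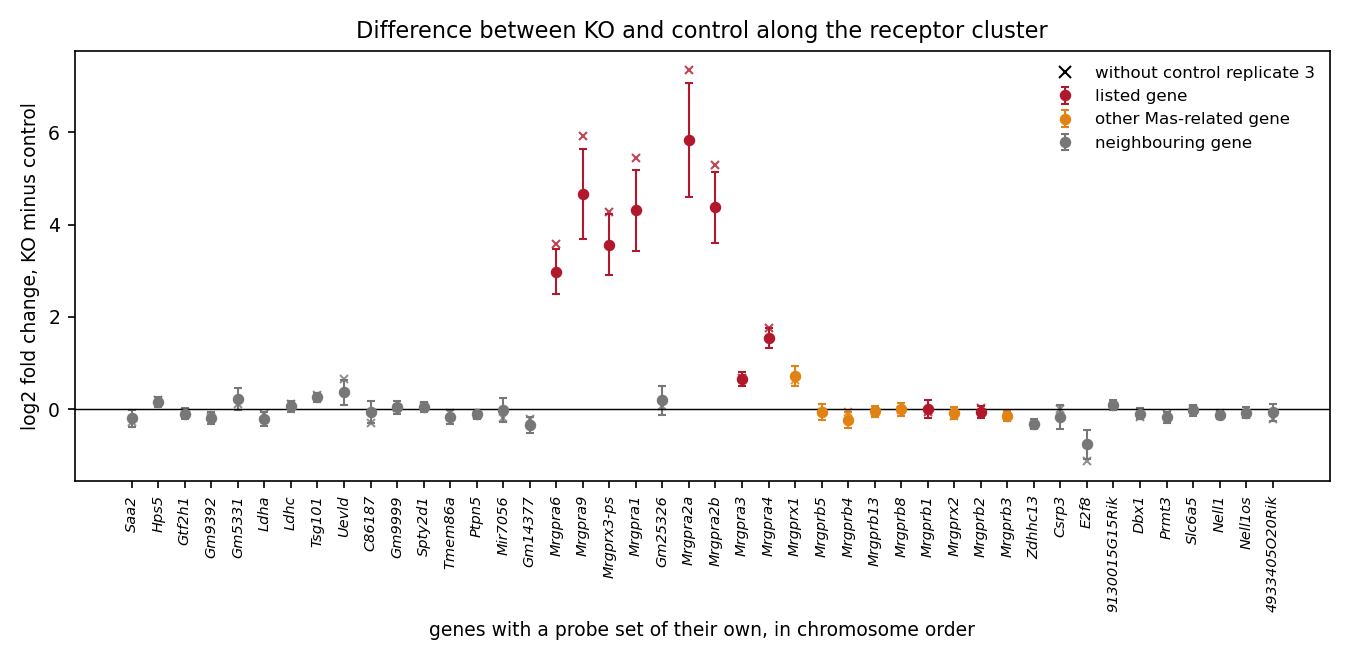
Log2 fold change with its standard error (KO minus control, vertical axis) of the measured genes in the cluster and of measured genes on either side, in gene order along the chromosome (horizontal axis, not to scale), with the value without control replicate 3. The 6 measured Mas-related genes at the left of the cluster have values of 2.98 to 5.83, and the flanking genes Ptpn5 and Zdhhc13 have -0.11 and -0.32.

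Of Mas-related genes that were not on the list, 13 were measured, 7 in the cluster and 6 elsewhere. None of them passed an adjusted p under 0.05 or the 2-fold rule (limma), and 1 was higher at an unadjusted p under 0.05, beside 5.09% of all probe sets. Their median log2 fold change was -0.05, beside -0.03 for all probe sets, and 10 of the 13 were below the array median in every array. The median was also -0.05 without control replicate 3, and again 0 passed either criterion. Mrgprx1, which is next to Mrgpra4, had log2 signals of 6.89, 6.87 and 6.23 in KO and of 6.17, 5.88 and 5.79 in control. These groups did not overlap, by a gap of 0.06, and the log2 fold change was 0.72 (SE 0.21, adjusted p = 0.325 from limma) or 0.64 without control replicate 3 (adjusted p = 0.244). Control replicate 3 was the lowest control in Mrgprx1.

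The groups overlapped in the other 12. Mrgprb4, which marks neurons that sense stroking of the skin, had a log2 fold change of -0.23 (SE 0.18), or -0.05 without control replicate 3, and Mrgprb3 and Mrgprf had -0.14 and -0.13. Mrgprd, the beta-alanine receptor of sensory neurons, was at 5.13, 4.89 and 5.02 in KO and at 5.22, 4.99 and 4.85 in control. Mas1, the receptor for angiotensin-(1-7) after which the family is named, was at 4.51, 4.15 and 4.69 in KO and at 4.44, 4.48 and 4.59 in control. All values of these last 2 genes were below the array medians. The 7 remaining genes, Mrgprb5, Mrgprb8, Mrgprb13, Mrgprx2, Mrgpre, Mrgprg and Mrgprh, differed by at most 0.08 between the group means.

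Genes around the cluster were taken as the 10 nearest protein-coding genes on either side and the genes of other families inside it, of which 19 were measured. None was higher or lower by the 2-fold rule or at an adjusted p under 0.05 in limma. In each direction 1 had an unadjusted p under 0.05, beside 5.09% higher and 5.8% lower of all probe sets. Their median log2 fold change was -0.10. Zdhhc13, a palmitoyltransferase gene directly beside Mrgprb3, was at 10.64, 10.53 and 10.55 in KO and at 10.92, 10.89 and 10.86 in control (log2 fold change -0.32, SE 0.10, adjusted p = 0.349). Tsg101, a subunit gene of the ESCRT-I complex, differed by 0.26 on the log2 scale (adjusted p = 0.44), and the lactate dehydrogenase gene Ldha by -0.21. Ptpn5, the nearest protein-coding gene before Mrgpra6, differed by -0.11 (SE 0.10, adjusted p = 0.758). The cell cycle repressor gene E2f8 had -0.76 (SE 0.32, adjusted p = 0.468), and -1.12 without control replicate 3 (adjusted p = 0.0452), the only measured neighbour for which leaving out that array added a call. Of all probe sets 914 were then lower at an adjusted p under 0.05. No difference of the size seen from Mrgpra6 to Mrgpra2b was measured on either side of the cluster.

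Genes that make ligands of Mas-related receptors or carry their signals were described from lists. Of 15 measured genes for ligand precursors and for enzymes that make ligands, 0 passed the 2-fold rule in either direction, and the median log2 fold change was -0.05. Without control replicate 3, 1 of them was higher and 1 lower by the 2-fold rule, beside 1226 and 858 of all 65956 probe sets. The median of the list was then 0.04. Hmox1, the heme oxygenase upstream of bilirubin, was at 6.48, 6.55 and 6.37 in KO and at 6.36, 5.97 and 6.11 in control (log2 fold change 0.32, adjusted p = 0.462 from limma). The chemokine gene Pf4 had 1.73 (SE 0.83, adjusted p = 0.517), or 2.78 without control replicate 3, which was at 13.82 and above all KO arrays. The cathelicidin gene Camp had -1.30 (SE 0.80, adjusted p = 0.628), or -2.22 without that array. Pomc, the precursor gene of melanocortins and endorphin, had -0.23 (adjusted p = 0.583).
Among 35 measured genes of G proteins, their regulators and effectors, 0 passed the 2-fold rule and the median log2 fold change was -0.09. Their KO arrays lay below all control arrays in 9 genes and above them in 3, beside 9.15% and 6.15% of all probe sets. The log2 fold changes were -0.42 (SE 0.13) for the G protein subunit gene Gnb1, -0.36 for Gng10 and for the regulator gene Rgs14, and 0.57 (SE 0.19) for Itpr2, a calcium channel of the endoplasmic reticulum, with adjusted p between 0.314 and 0.363. Without control replicate 3, 3 of the 35 genes were higher and 2 lower by the 2-fold rule, beside 1226 and 858 of all 65956 probe sets. The changes of these genes were small next to those of Mrgpra1, Mrgpra2a, Mrgpra2b and Mrgpra9.

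Marker lists of cell types that are known to use Mas-related receptors were compared array by array. Of 32 measured genes of mature neutrophils, 8 were higher and 0 lower by the 2-fold rule (0.593% and 0.393% of all probe sets). All KO arrays lay above all controls in 13 of these genes (6.15% of all probe sets) and below them in 2 (9.15%). The summed linear signal of the list ran from 2.24e+05 to 6.61e+05 in KO and from 1.26e+04 to 1.96e+05 in control. Chil3, a chitinase-like gene, was at 14.37, 13.34 and 11.14 in KO and at 7.55, 6.16 and 6.08 in control (log2 fold change 6.35, SE 0.82, adjusted p = 0.158 from limma), and Stfa1, Stfa3 and Ifitm6 had log2 fold changes of 7.74, 3.30 and 2.94 (adjusted p = 0.171, 0.176 and 0.195). Without control replicate 3, 9 genes of the list were higher and 2 lower by the 2-fold rule, beside 1226 and 858 of all 65956 probe sets. Secondary granule genes were divided. Lcn2 was at 8.66, 8.49 and 7.92 in KO and at 7.36, 6.83 and 6.71 in control (log2 fold change 1.39, adjusted p = 0.205). Ngp was at 6.24, 5.50 and 5.35 in KO and at 10.45, 7.61 and 5.48 in control, and Ltf differed by -0.67 (SE 0.40). These 3 genes were named after their values were seen.
The order of the controls also varied within the list. S100a9 was at 16.58, 13.66 and 8.10 in control replicates 1, 2 and 3, the reverse of Mrgpra2a. The lectin receptor genes Clec4d and Clec4e were at 5.97, 6.49 and 10.18 and at 7.03, 7.67 and 11.02, with replicate 3 nearest to the KO arrays as in Mrgpra2a. These 3 genes were chosen after their values were seen. The median of the list, each gene set against its own mean, was 0.94, 0.19 and 0.07 in KO and -0.10, -0.19 and -0.45 in control. Its part in the Mas-related signals was not tested.

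Of 19 measured mast cell genes, 2 were higher and 0 lower by the 2-fold rule (0.593% and 0.393% of all probe sets). Their median log2 fold change was 0.42, or 0.74 without control replicate 3. Without that array 6 were higher by the 2-fold rule and 4 at an adjusted p under 0.05, which 1418 of all probe sets then passed as higher. By the 2-fold rule, 1226 of all 65956 probe sets were then higher and 858 lower. Mcpt2 was at 8.58, 7.82 and 8.80 in KO and at 5.18, 5.71 and 7.09 in control (log2 fold change 2.41, SE 0.50, adjusted p = 0.237 from limma). Mcpt4 had 1.61 (adjusted p = 0.246), Mcpt1 0.93 and the serotonin synthesis gene Tph1 0.37. The summed linear signal of the list was 5.5e+04 to 6.11e+04 in KO and 3.41e+03 to 4.38e+04 in control. The tryptase gene Tpsb2, named after its values were seen, was between 5.02 and 5.41 on all arrays with a log2 fold change of 0.00. Cpa3, Hdc and Mitf, also named after their values were seen, had 2.69, 2.07 and 1.03 without overlap of the groups. Of the 19 genes, 8 had all KO arrays above all controls (6.15% of all probe sets) and 0 had them below (9.15%). Mrgprb2 was low on all arrays. Of 12 basophil genes 0 passed the 2-fold rule, with Mcpt8 at 2.43 and Fcer1a at 2.58. Il3ra had -0.83 and Cd200r3 0.55. By the 2-fold rule 2 basophil genes were higher and 1 lower without control replicate 3, beside 1226 and 858 of all 65956 probe sets. The summed linear signal of the basophil list was 2.72e+04 to 3.48e+04 in KO and 2.89e+03 to 2.29e+04 in control, and the part of mast cell or basophil RNA in the Mas-related signals was not tested. Of 8 eosinophil genes 1 was lower by the 2-fold rule (0.393% of all probe sets were), Prg2 with -4.52 (SE 0.49, adjusted p = 0.151), while Ear6, Alox15 and Epx had -0.81, -0.22 and -0.37. Without control replicate 3, 2 were lower, beside 858 of all 65956 probe sets.

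Of 23 measured genes of sensory neurons, the best known site of the family, 15 were below the array median on every array, 0 passed the 2-fold rule and the median log2 fold change was -0.07. Their summed linear signal was 1.82e+03 to 1.98e+03 in KO and 1.94e+03 to 5.36e+03 in control. Scn11a, a sodium channel gene of pain neurons, was at 6.19, 6.49 and 6.32 in KO and at 5.14, 5.45 and 5.82 in control (log2 fold change 0.86, SE 0.19, adjusted p = 0.258), with Gfra2, P2rx3 and Il31ra at -1.20, -0.70 and -0.52. Without control replicate 3, 1 gene of the list was higher and 1 lower by the 2-fold rule, beside 1226 and 858 of all 65956 probe sets. Of 15 monocyte and macrophage genes 0 passed the 2-fold rule, with or without control replicate 3, and the median log2 fold change was 0.06, with 8 of 15 above 0. The 4 with the lowest p, Fcgr1, Cd68, Vcam1 and Ccr2, had 0.75, 1.04, 0.54 and 1.18. Among 12 measured lineage genes of B, T, NK and erythroid cells, the NK receptor gene Klrb1c (1.16) was higher by the 2-fold rule (0.593% of all probe sets were). Cd5, Cd79a and Cd79b had 0.54, -1.97 and -1.66. When control replicate 3 was left out, 1 lineage gene was higher and 2 lower, beside 1226 and 858 of all 65956 probe sets.
Of the sorting markers, the gene of Sca1 was not analysed here. The paper reports that its expression was higher in KO LSK cells, and holds that effects on how cells were sorted into LSK cells were most likely very limited. It also reports that stem cells made up a smaller share of the LSK cells in KO animals. Kit was at 12.37, 12.28 and 12.40 in KO and at 12.13, 11.93 and 12.92 in control. Cd34, a marker of progenitors, was at 13.99 or more on all arrays. Its groups overlapped, with a log2 fold change of 0.84 (SE 0.35), or 1.28 without control replicate 3. Of 13 measured LSK genes 1 was lower by the 2-fold rule (0.393% of all probe sets were), Flt3 with -1.22 (SE 0.26), and Lmo2 and Myb had -0.32 and -0.39. Leaving out control replicate 3 gave 2 higher and 1 lower, beside 1226 and 858 of all 65956 probe sets.

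**Figure D3:**
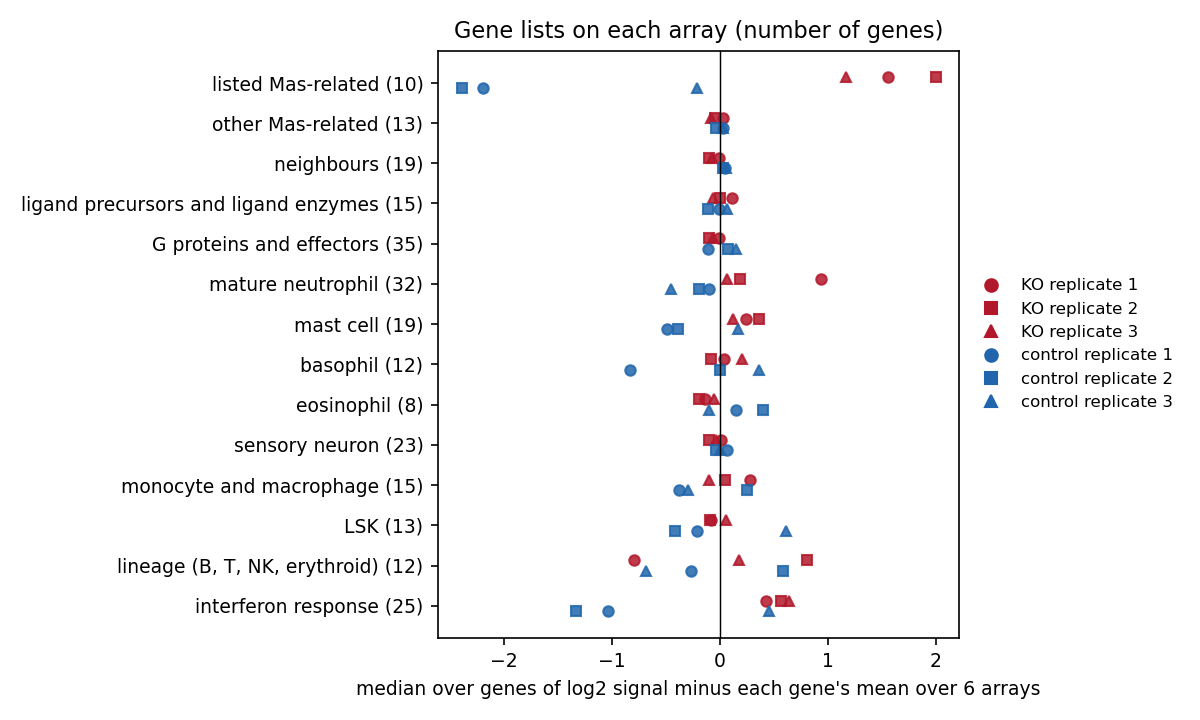
Median over each gene list of the log2 signal minus the gene's own mean over the 6 arrays (horizontal axis), by array, for the listed Mas-related genes and for the marker and signalling lists. The Mas-related genes and the interferon list put control replicate 3 well above the other controls (-0.21 against -2.19 and -2.39, and 0.46 against -1.03 and -1.33). The LSK list (0.61 against -0.21 and -0.41), the mast cell list (0.17 against -0.49 and -0.39) and the basophil list (0.36 against -0.83 and 0.00) also put it highest. The neutrophil list puts it below the other controls (-0.45 against -0.10 and -0.19).

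The median of the interferon response genes put control replicate 3 above the other controls, as did that of the Mas-related genes. Single Mas-related genes differed in the order of control replicates 1 and 2, with 7.31 and 8.71 in Mrgpra2a and 5.78 and 5.55 in Mrgpra1. The medians of the mast cell, basophil and LSK lists also put control replicate 3 highest of the controls (LSK list -0.21, -0.41 and 0.61 in control replicates 1, 2 and 3). Of 25 measured interferon response genes, 3 were higher and 0 lower by the 2-fold rule (0.593% and 0.393% of all probe sets). All KO arrays lay above all controls in 9 of them (6.15% of all probe sets) and below in 0 (9.15%). Their median log2 fold change was 1.06, or 1.69 without control replicate 3. Without that array 19 were higher and 0 lower by the 2-fold rule, beside 1226 and 858 of all 65956 probe sets. The list's median was 0.43, 0.57 and 0.64 in KO and -1.03, -1.33 and 0.46 in control, and its summed linear signal 4.8e+04 to 4.86e+04 in KO and 1.45e+04 to 4.29e+04 in control. Oas2, a sensor of double-stranded RNA, was at 10.97, 10.97 and 11.11 in KO and at 7.52, 7.13 and 10.33 in control (log2 fold change 2.69, SE 0.78, adjusted p = 0.32 from limma), and the antiviral gene Ifit1 had 1.68 (adjusted p = 0.304). In these genes control replicate 3 was close to the KO arrays, and in the Mas-related genes it lay farther below them. Whether the interferon response has a part in the Mas-related signals was not tested.

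The genes whose pattern was most like that of the Mas-related genes were sought among 443 genes with an SD of at least 1 over the arrays, by Pearson's r over the 6 arrays with the mean of the centred values of the listed genes. The 8 highest were Cdh17 (0.991), Calm4 (0.990), Ifit1bl1 (0.990), Zbp1 (0.988), Ifi27l2a (0.987), Trbv1 (0.983), Trap1a (0.983) and Ifi208 (0.983). Calm4, a calmodulin-like gene, was at 10.71, 11.23 and 10.83 in KO and at 6.39, 6.73 and 9.53 in control. Cdh17, an intestinal cadherin, was at 8.93, 9.39 and 8.87 in KO and at 6.17, 5.87 and 8.01 in control. Zbp1, a sensor of Z-form nucleic acids, was at 10.76, 10.85 and 10.77 in KO and at 8.33, 8.21 and 10.10 in control. All 8 share the order of the Mas-related genes, with the KO arrays highest, control replicate 3 next and control replicates 1 and 2 lowest. Their log2 fold changes were between 1.55 in Trap1a and 3.37 in Calm4, against 5.83 in Mrgpra2a. Such likeness over 6 arrays in 2 groups is a description, since any gene with a group difference and a raised control replicate 3 scores high.

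**Figure D4:**
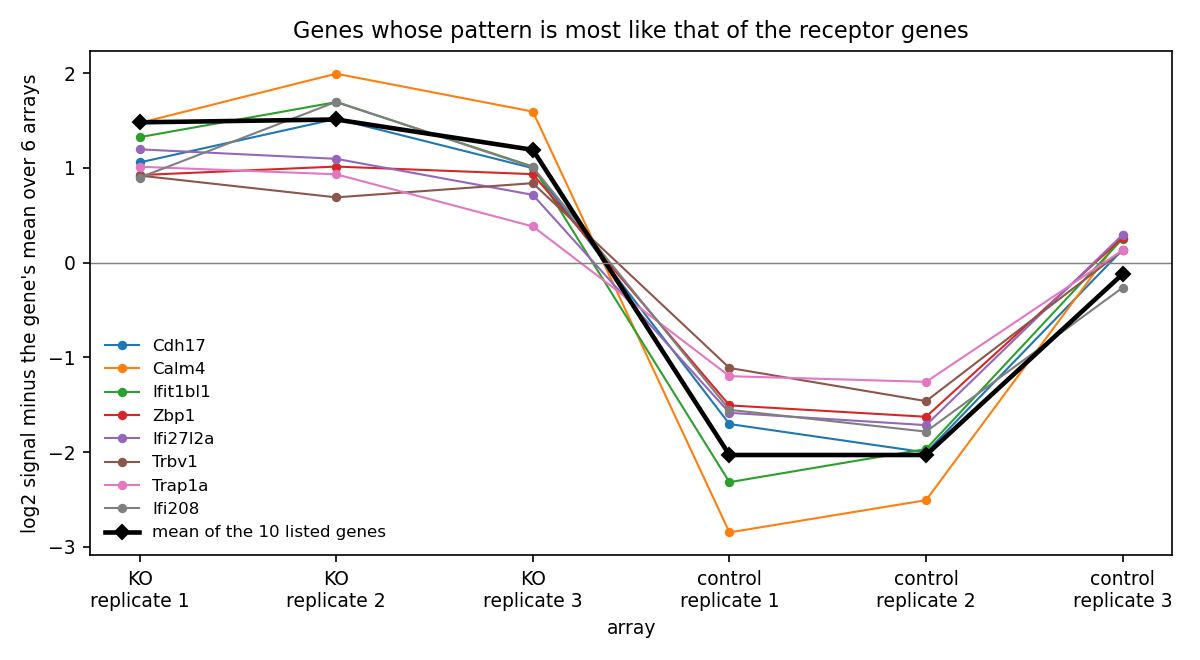
Log2 signal minus the gene's mean over the 6 arrays (vertical axis) on each array, for the mean of the listed Mas-related genes and for the 8 genes most like it. All lines place control replicate 3 between the other controls and the KO arrays.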

How the data were processed

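RNA of LSK cells was measured on 6 MTA-1.0 arrays, 3 KO and 3 control, with 40 ng of total RNA each. The authors normalized the arrays together by SST-RMA and deposited log2 signals for 65956 probe sets, and these were used as they stand. The submitters' processing notes name Affymetrix Expression Console, RMA and Transcriptome Analysis Console, and the genome build of the array annotation is not given in the sources used here. An annotation of the array, updated through RefSeq (819 symbols), gave 31292 probe sets with 1 gene, 1522 with several and 33142 with none. RefSeq (GRCm38.p6) was used for gene names, gene order and promoter windows. The number of arrays limits the precision, and 0 columns of samples were left unused.

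KO and control were compared with limma 3.58.1 (R 4.3.3) by lmFit and eBayes over all probe sets without a filter, weighting all arrays equally and using no block, with the Benjamini-Hochberg adjustment. Calls were made at an adjusted p under 0.05, as in the methods, and at a difference above 2-fold with an unadjusted p below 0.01, the 2-fold rule of the text. The study counted genes at the same fold and p thresholds, without saying whether that p was adjusted. SE is the moderated standard error of limma and SD that between arrays of a group. Where a gene has several probe sets, the one with the highest mean was used. Python 3.11.15 and matplotlib 3.10.9 were used for plots.

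The Mas-related genes and all gene lists were chosen with earlier results of these data known. Named were all Mas-related genes on or off the list, Ash2l, up to 4 genes of each list with the lowest p, and the 8 genes most like the listed ones; others are said to be chosen after their values were seen, as were Kit and Ptpn5. Alternatives were quantile normalization, median centring, probe sets above the median, trend and robust priors, array weights, a block by replicate or by label number, probe sets naming 1 gene, averaging the probe sets of a gene, and leaving out each array. Identity between proteins of the listed genes was planned and is not analysed here; promoter windows were aligned instead, a step chosen after seeing the data.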

Additional observations from a re-analysis of the deposited data

How the results depend on the processing

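Over all alternatives, 7 of the 10 listed genes stayed over 2-fold higher, and 8 kept all KO arrays above all controls. Much of this was fixed in advance. The priors, the replicate block and the choice of probe sets leave the fold of a gene as it is. Leaving out an array cannot make separated groups overlap, and averaging changes nothing in genes with 1 probe set. The genes were also chosen by this contrast, so nothing is read from these counts. By the 2-fold rule, the count was 7 in all of them except without KO replicate 1 and without KO replicate 2, where it was 6. Over all probe sets, counts by the 2-fold rule were 683 higher and 486 lower with array weights, 939 and 750 with a block by label number, and 158 and 151 with probe sets naming 1 gene, beside 391 and 259. At an adjusted p under 0.05, 2 were higher with quantile normalization, 1 with median centring, and 2 higher and 1 lower with array weights, beside 0. Leaving out 1 array gave 189 to 1226 higher and 165 to 858 lower, and at an adjusted p under 0.05 0 to 1418 higher and 0 to 914 lower, with the highest counts without control replicate 3. Of the neighbours 0 to 1 were lower when 1 array was left out, and 1 with the block by label number, E2f8 in both cases. With the replicate number as a block, 334 were higher and 218 lower, 0 passed an adjusted p under 0.05, and the listed genes stayed at 7 and 8. Arrays of the same replicate number had deviations that correlated at 0.156, -0.171 and -0.169, which cannot settle whether they were paired. The block by label number rests on 2 pairs, whose deviations correlated at 0.156 and 0.162. Leaving out 1 array moved Mrgpra2a between 4.73 and 7.34, Mrgpra9 between 3.93 and 5.91, Mrgpra1 between 3.69 and 5.44, Mrgpra2b between 3.85 and 5.28 and Mrgpra3 between 0.57 and 0.77. With 3 arrays per group, and control replicate 3 apart from the others, small differences in dim genes such as Mrgprb1 cannot be resolved.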
